A study of Mus musculus with 9 samples.

Results

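The miR-378 family was described in the small RNA libraries of 9 mouse livers, as all rows of the deposited count table whose name starts with mmu-miR-378. This rule gave 5 of the 1140 rows of the table (1106 of them named as known miRNAs of the mouse). The 5 rows were mmu-miR-378a-3p and mmu-miR-378a-5p, which are the mature products of the 3′ and 5′ arms of one hairpin, and mmu-miR-378b, mmu-miR-378c and mmu-miR-378d. The mice were male, of the C57BL/6 strain and 8 weeks old at the start. The control group (n = 3) was injected intraperitoneally with normal saline for 8 weeks. The TAA group (n = 3) was injected with thioacetamide (TAA), a hepatotoxin that gives rise to liver fibrosis, over 8 weeks. The recovery group (n = 3) received TAA over 8 weeks and then had 8 weeks without injections. All samples were whole liver, and the question was how hepatic miRNAs changed in fibrosis and in its spontaneous reversal. The recovery group was also 8 weeks older at death, so that recovery and elapsed time cannot be told apart.

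miR-378a lies in an intron of Ppargc1b, the gene of PGC-1β, a coactivator that raises mitochondrial and lipogenic gene expression. Its arms are known as regulators of fatty acid oxidation, mitochondrial metabolism and hepatic lipid and glucose balance, and miR-378a-3p is also known to restrain the activation of hepatic stellate cells, the main source of scar matrix in the liver. It is abundant in liver, brown fat and in skeletal and cardiac muscle. The other family members are read from separate hairpins and are named for their similarity to miR-378a.

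A mature sequence was matched in the RefSeq table (build GRCm38.p6) for 3 of the 5 rows, miR-378b, miR-378c and miR-378d. None was matched for miR-378a-3p or miR-378a-5p. The likeness of the most abundant row, miR-378a-3p, to the others was thus not examined. The matched sequences are shown because their likeness decides how far these rows can be told apart. Bases 2 to 8, the seed that pairs with target mRNAs, are in capitals, and the sequences run 5′ to 3′.
mmu-miR-378b: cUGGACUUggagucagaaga
mmu-miR-378c: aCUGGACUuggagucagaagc
mmu-miR-378d: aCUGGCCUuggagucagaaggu
Counted from the 5′ end of miR-378c, miR-378d differs within the seed by A6C and near the 3′ end by C21G. It is also longer at the 3′ end, with 22 bases against 21. miR-378b begins 1 base later and differs from miR-378c by C21A alone, so that these miRNAs share an unbroken run of 19 bases (positions 2 to 20 of miR-378c). Because of the later start the seed of miR-378b is positions 3 to 9 of miR-378c, while the seed of miR-378c is its positions 2 to 8. The mature miR-378b lies at chr11:88352839-88352858 (+ strand, GRCm38.p6), bases 67 to 86 of a hairpin of 92 bases. miR-378c lies at chr14:46954905-46954925 (− strand), bases 4 to 24 of 99, and miR-378d at chr10:126710355-126710376 (− strand), bases 16 to 37 of 110. In the GENCODE annotation (release M21), the hairpin of miR-378b lies within an intron of Msi2 and that of miR-378c within an intron of Samd4, each on the strand opposite to the gene. No annotated gene other than miRNA genes overlaps the hairpin of miR-378d. How reads that match more than 1 row were assigned is not given in the sources used here, so the division of counts among the similar rows is uncertain. Outside the family, miR-122-5p and miR-122b-3p held nearly equal shares, at 20.333% and 20.331% of control counts. Library totals and TPM may thus hold some reads more than once.

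The total count per sample was 9071847 to 12983378. Values are given on 2 scales. The deposited TPM expresses a count per 1000000 counts of the library, and CPM expresses it per 1000000 counts after scaling the libraries by TMM factors, which assume that most miRNAs do not change. The scales differ here because the TMM factors were 1.43 to 1.63 for TAA livers, against 0.739 to 0.792 for control and 0.766 to 0.887 for recovery livers. One abundant row, miR-21a-5p, took 35.1% ± 2.81 of the counts of TAA livers, against 20.6% ± 2.54 for control and 21.0% ± 2.44 for recovery livers (SD, n = 3). Other abundant rows held less in TAA than in control livers. miR-122-5p and miR-122b-3p held 11.3% against 20.3% each, miR-148a-3p 8.06% against 11.55%, and miR-192-5p 5.45% against 7.51%. With library totals the median log2 fold change of TAA vs control was 1.23, and 1.57 without miR-21a-5p, further from the 0.11 with TMM. Which rows set the TMM factors was not tested. TAA replicate 3 stood apart in muscle miRNAs. The summed level of the 6 skeletal and cardiac muscle miRNAs in the table was 4740 CPM in this library and 9.73 to 50.9 CPM in the other 8 libraries. Its miR-1a-3p was at 67184 counts, against 73 to 488 elsewhere, its miR-133a-3p was at 2281 counts, against 3 to 14, and its miR-133b-3p was at 100 counts, against 0 in every other library. As miR-378a is itself abundant in muscle, many results that use the TAA group are also given without this library. For ratios, correlations and marker lists this was added after the values were seen. Results with library totals or TPM, shares over all rows and permutation p-values are given with all TAA libraries only, unless stated.

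miR-378a-3p was the main product of the family. Control replicates 1 to 3 had 59841, 44501 and 40972 counts of it, TAA replicates 1 to 3 had 41674, 38953 and 37517, and recovery replicates 1 to 3 had 52371, 49617 and 56058. Of all counts of the family it made up 90.7% ± 1.18 for control, 90.8% ± 1.43 for TAA and 91.0% ± 0.625 for recovery livers (SD, n = 3). The family as a whole held 0.480% ± 0.0334, 0.443% ± 0.0387 and 0.470% ± 0.0282 of all counts for control, TAA and recovery livers (0.436% for TAA without replicate 3). These shares overlapped between all groups (exact two-sided permutation test, p = 0.4 between TAA and control, 0.5 between recovery and TAA, and 0.7 between recovery and control). With 3 samples against 3 the smallest p this test can give is 0.1.

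On the TMM scale miR-378a-3p was lower in the fibrotic livers. Control replicates 1 to 3 were at 5819, 5871 and 5454 CPM, and TAA replicates 1 to 3 at 2570, 2629 and 2518 CPM. The groups did not overlap, and each TAA sample lay below the lowest control sample. The log2 fold change was −1.24 ± 0.10 (SE; 95% interval −1.47 to −1.01; FDR = 0.000114, edgeR quasi-likelihood test with Benjamini-Hochberg adjustment). Without TAA replicate 3 it was −1.21 (FDR = 0.000469, edgeR). The other arm, miR-378a-5p, was far less abundant. Control samples were at 66.6, 76.8 and 72.8 CPM and TAA samples at 31.3, 33.6 and 38.6 CPM, again with no overlap. Its log2 fold change was −1.15 ± 0.15 (SE; FDR = 0.000879, edgeR), and −1.22 (FDR = 0.00152, edgeR) without TAA replicate 3. Both decreases were thus about as large without the library that held the muscle miRNAs.

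The miR-378c row moved in the same direction. Control samples were at 614, 514 and 410 CPM and TAA samples at 185, 226 and 260 CPM, with a log2 fold change of −1.28 ± 0.22 (SE; FDR = 0.00196, edgeR), and −1.38 (FDR = 0.00378) without TAA replicate 3. miR-378b was near the lower limit of what was tested, with 54, 34 and 29 counts for control and 31, 46 and 34 counts for TAA replicates. Its log2 fold change was −0.98 ± 0.31 (SE; FDR = 0.0288, edgeR). This call did not hold without control replicate 1 (FDR = 0.0938), control replicate 2 (0.0660), TAA replicate 1 (0.0612) or TAA replicate 3 (0.0880). miR-378d had 1 count in control replicate 3, 1 count in TAA replicate 3 and 0 counts in the other 7 libraries, and was removed by the filter on low counts. Its level was not detectable at this depth, where 3 counts correspond to 0.231 to 0.331 TPM.

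In all, 4 of the 5 rows could be tested and these 4 were lower in the TAA group at an FDR below 0.05, against 26.4% of the 420 rows tested. Here and below, the rows of the family are not separate observations. miR-378a-3p and miR-378a-5p come from the same hairpin, and miR-378b and miR-378c share most of their bases. Whether reads were shared between miR-378a-3p and the similarly named rows, miR-378c above all, was not tested. A fold change of at least 2, which together with that FDR defines a DEM (differentially expressed miRNA), was reached by miR-378a-3p, miR-378a-5p and miR-378c, against 16.7% of all rows. The median log2 fold change of the 420 rows was 0.11. By size of change miR-378a-3p was not extreme, since 49 rows had a lower log2 fold change and 370 a higher one.

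**Figure D1:**
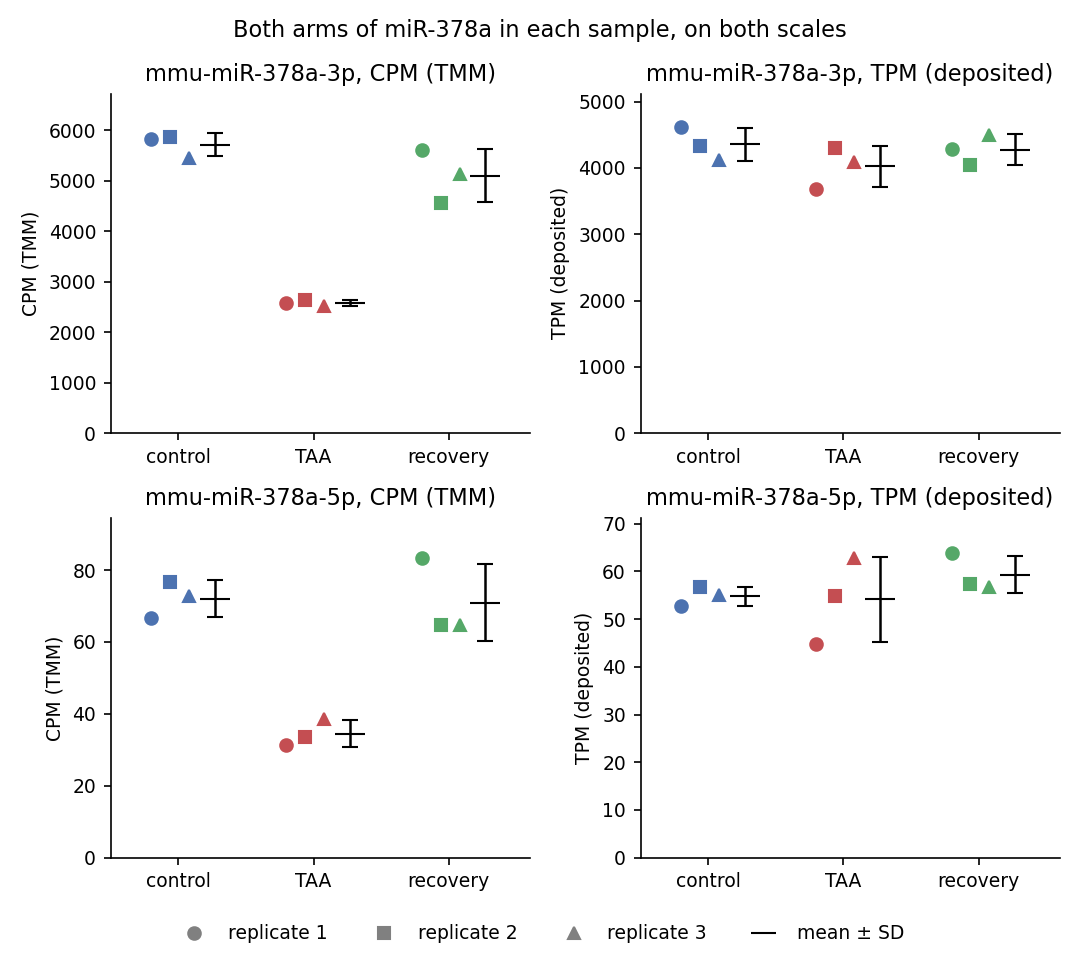
Level of miR-378a-3p (top) and miR-378a-5p (bottom) in each of the 9 samples, as CPM scaled by TMM (left) and as deposited TPM (right), on linear axes from 0. Points are samples, with 1 shape per replicate number, and black bars are the mean ± SD of a group (n = 3). The TAA samples lie below all others on the TMM scale (2518 to 2629 CPM for miR-378a-3p), while on the TPM scale the TAA samples (3681 to 4294 TPM) overlap the control and recovery samples.

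The decrease depended on the scale. As deposited TPM, miR-378a-3p was at 4609, 4336 and 4118 for control and at 3681, 4294 and 4093 for TAA replicates, so that the groups overlapped. With library totals in place of TMM factors, edgeR gave a log2 fold change of −0.11 ± 0.10 (SE; FDR = 0.344) for miR-378a-3p and −0.02 ± 0.16 (SE; FDR = 0.929) for miR-378a-5p, and 0 of the 4 rows passed (0 at an unadjusted p below 0.05, and 0 also by limma on TPM). On this scale 77.1% of the 420 rows passed in either direction and the median of all rows was 1.23, in place of 0.11. miR-378a-3p lay below the median of all rows under both scalings. Its share of the library overlapped between the groups, at 4023 ± 312 TPM for TAA and 4354 ± 246 TPM for control livers (SD, n = 3). The median row took a larger share of TAA than of control libraries.

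Ratios within a library do not depend on the scaling. The ratio of miR-378a-3p to each of 8 common reference miRNAs was lower in every TAA sample than in every control sample for 8 of 8 references, including miR-191-5p, miR-16-5p and miR-423-3p. The differences of the mean log2 ratio ranged from −1.35 (miR-93-5p) to −0.68 (miR-16-5p), with a median of −1.20 (exact two-sided permutation test, p = 0.1 each, the smallest possible, and 0.141 adjusted over 24 tests). Without TAA replicate 3 they ranged from −1.42 to −0.67. The same separation was seen for 76.9% of the 416 rows that could serve as the denominator, so that 8 of 8 is to be read against a common pattern. In edgeR on the TMM scale 2 of the 8 references were themselves lower in the TAA group, miR-16-5p (−0.56) and miR-103-3p (−0.40), whereas with library totals all 8 were higher, by a median of 1.09.

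After TAA withdrawal miR-378a-3p was higher again on the TMM scale. The recovery samples were at 5598, 4557 and 5135 CPM, each above the highest TAA sample (2629 CPM). The log2 fold change of recovery vs TAA was 0.96 ± 0.12 (SE; 95% interval 0.67 to 1.25; FDR = 0.00106, edgeR), and 0.98 (FDR = 0.00329) without TAA replicate 3. The change fell just short of a fold of 2, at 1.95. miR-378a-5p was at 83.3, 64.8 and 64.8 CPM in the recovery samples, and its log2 fold change of 1.01 ± 0.18 (SE; FDR = 0.00367, edgeR) just exceeded a fold of 2, at 2.02. Hence 1 arm was a DEM and the other was not, although their estimates differed by less than the SE of either. With DESeq2 both arms were DEMs, at 1.03 for miR-378a-3p and 1.09 for miR-378a-5p. Without TAA replicate 3 the value of miR-378a-5p was 1.13 (FDR = 0.00613).

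Recovery values of miR-378c were 468, 349 and 476 CPM, all above the TAA samples, with a log2 fold change of 0.92 ± 0.20 (SE; FDR = 0.00935, edgeR) and of 1.07 (FDR = 0.00652) without TAA replicate 3. For miR-378b the recovery samples were at 2.99, 1.84 and 4.40 CPM and overlapped the TAA samples at 1.91, 3.10 and 2.28 CPM (log2 fold change 0.30 ± 0.38, SE; FDR = 0.569, edgeR). Thus 3 of the 4 tested rows were higher in recovery at an FDR below 0.05, against 18.4% of the 440 rows tested, and 1 was a DEM, against 10.2%. The median of all rows was −0.12. In this comparison 388 rows had a lower log2 fold change than miR-378a-3p and 51 a higher one. Both comparisons share the TAA samples, so the opposite directions are not independent observations.

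The scale mattered here as well. With library totals the log2 fold change of recovery vs TAA was 0.09 ± 0.13 (SE; FDR = 0.560, edgeR) for miR-378a-3p and 0.13 ± 0.18 (SE; FDR = 0.546) for miR-378a-5p, and 0 of 4 rows passed (0 at an unadjusted p below 0.05, and 0 by limma), against 64.1% of the 440 rows in either direction, while the median of all rows moved from −0.12 to −0.98. As TPM the recovery samples of miR-378a-3p (4288, 4043 and 4498) overlapped the TAA samples. The ratio of miR-378a-3p to the reference miRNAs was higher in every recovery sample than in every TAA sample for 8 of 8 references, by 0.68 to 1.24 on the log2 scale with a median of 0.93 (exact permutation test, p = 0.1 each; 0.141 adjusted), and by a median of 0.97 without TAA replicate 3. This separation was seen for 64.4% of 436 rows.

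**Figure D2:**
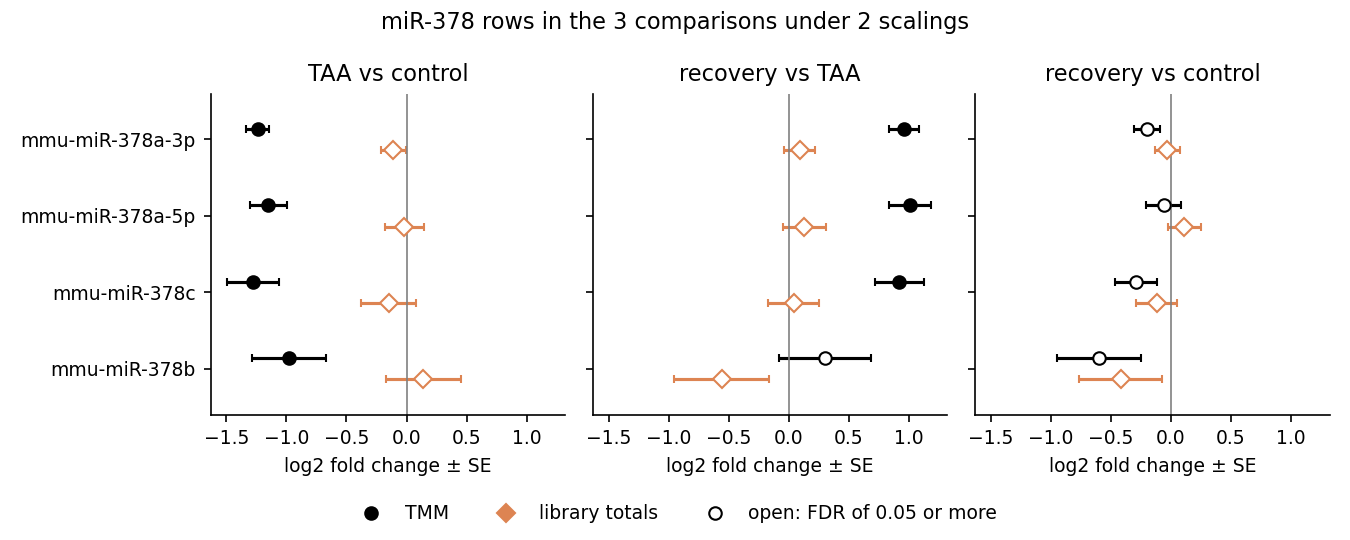
Log2 fold change ± SE (edgeR) of the 4 tested miR-378 rows in the 3 comparisons, with TMM factors (black circles) and with library totals (orange diamonds). Filled symbols have an FDR below 0.05. With TMM, TAA vs control has 4 rows that pass and recovery vs TAA has 3, while with library totals 0 rows pass in any comparison.

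Between recovery and control no row of the family passed the test. The log2 fold change was −0.20 ± 0.11 (SE; 95% interval −0.44 to 0.03; FDR = 0.316, edgeR) for miR-378a-3p and −0.06 ± 0.15 (SE; 95% interval −0.39 to 0.27; FDR = 0.878) for miR-378a-5p. It was −0.29 ± 0.17 (SE; FDR = 0.405) for miR-378c and −0.60 ± 0.35 (SE; FDR = 0.382) for miR-378b. Of the 4 tested rows, 0 had an unadjusted p below 0.05 in edgeR with TMM and 0 passed in DESeq2, against 14.1% of the 391 rows tested in edgeR. With upper-quartile factors 1 of the 4 had an unadjusted p below 0.05 and 0 passed, and miR-378a-3p was at −0.34 (FDR = 0.0857, edgeR). The ratio of miR-378a-3p to the 8 reference miRNAs differed by a median of −0.135 on the log2 scale. Recovery and control samples were separated for 1 of the 8, miR-423-3p (−0.26; exact permutation test, p = 0.1; 0.141 adjusted). The recovery samples of miR-378a-3p (4557 to 5598 CPM) overlapped the control samples (5454 to 5871 CPM), although their mean was lower, at 5097 ± 521 against 5714 ± 227 CPM (SD, n = 3). For miR-378a-5p the means were 70.9 ± 10.7 and 72.1 ± 5.13 CPM. As deposited TPM each recovery sample of miR-378a-5p was above each control sample, by a narrow margin (56.73 to 63.8 against 52.8 to 56.70 TPM), and with library totals its log2 fold change was 0.11 (FDR = 0.739, edgeR). The intervals leave room for a decrease of miR-378a-3p by up to 0.44 on the log2 scale, so equality of the groups is not shown. The order of the group means of miR-378a-3p was control, recovery and TAA from high to low. Samples of control and recovery overlapped, and their difference did not pass the test.

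**Figure D3:**
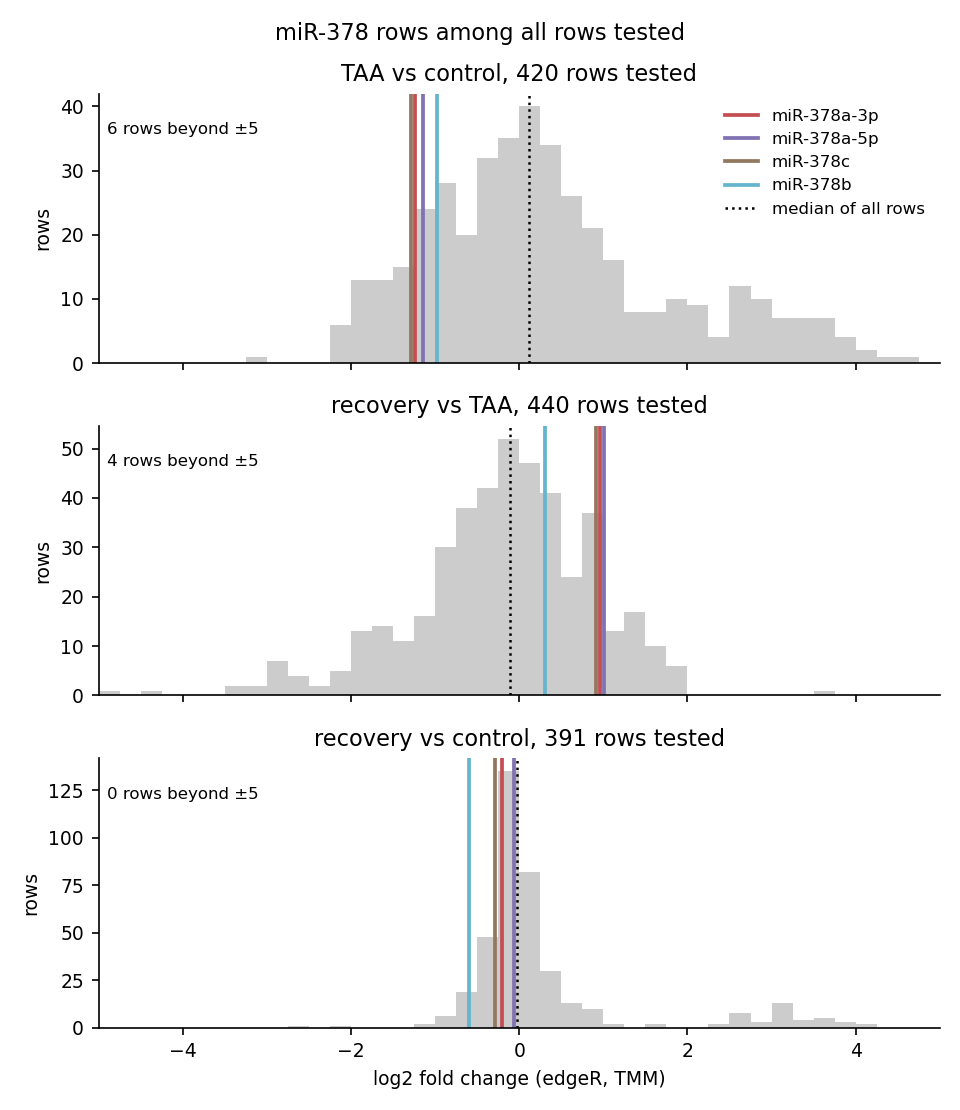
Distribution of log2 fold changes (edgeR, TMM) of all rows tested in each comparison (grey bars, number of rows per bin of 0.25), with the 4 tested miR-378 rows as coloured lines and the median of all rows as a dotted line. The family lies on the lower side for TAA vs control (−1.28 to −0.98) and on the upper side for recovery vs TAA (0.30 to 1.01), within the range of many other rows. In recovery vs control it lies between −0.60 (miR-378b) and −0.06 (miR-378a-5p).

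Both arms of miR-378a are cut from one hairpin, so their ratio compares products of the same transcript. The hairpin gene Mir378a lies at chromosome 18, 61397835 to 61397900 (GRCm38, − strand), within intron 1 of Ppargc1b and on the same strand, and overlaps no exon of the 3 annotated transcripts of that gene. Levels of the host mRNA were not analysed here. Per count of miR-378a-5p, control replicates 1 to 3 had 87.4, 76.5 and 74.9 counts of miR-378a-3p, TAA replicates had 82.2, 78.2 and 65.2, and recovery replicates had 67.2, 70.4 and 79.3. The ranges of the groups overlapped throughout, and TAA replicate 3 had the lowest ratio of all libraries. The mean log2 ratio differed by −0.08 between TAA and control, −0.05 between recovery and TAA and −0.14 between recovery and control (exact two-sided permutation test, p = 0.6, 0.8 and 0.3; 0.9 each after adjustment over 9 ratio tests). Without TAA replicate 3 the first value was 0.01 and the second −0.15. A change in arm usage between the groups was thus not detected, in a design that could not have reached a p below 0.1.

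The share of miR-378c beside miR-378a-3p varied more between libraries than between groups. Of the summed counts of both it held 9.54%, 8.05% and 6.99% for control, 6.71%, 7.92% and 9.35% for TAA, and 7.71%, 7.11% and 8.48% for recovery replicates 1 to 3. The spread within groups exceeded counting error, as the 95% Wilson interval of control replicate 1 was 9.32% to 9.77% and that of control replicate 3 was 6.76% to 7.24% (intervals cover counting error only). Differences of the mean log2 ratio between groups were −0.04, −0.04 and −0.08 in the 3 comparisons (exact permutation p = 0.7, 0.9 and 0.7), and −0.17 and 0.10 in the first 2 without TAA replicate 3. Of the summed counts of miR-378b and miR-378a-3p, miR-378b held 0.0707% to 0.0902% for control, 0.0743% to 0.118% for TAA and 0.0403% to 0.0856% for recovery samples. Its mean log2 ratio differed by 0.24 for TAA vs control and by −0.70 for recovery vs TAA (exact permutation p = 0.4 and 0.2), and by 0.25 and −0.72 without TAA replicate 3. When miR-378a-3p, b, c and d were summed to 1 row, the log2 fold changes in the 3 comparisons were −1.24, 0.96 and −0.21, close to the values of miR-378a-3p alone. The sum could hold a read more than once if reads that match several rows were counted in each.

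**Figure D4:**
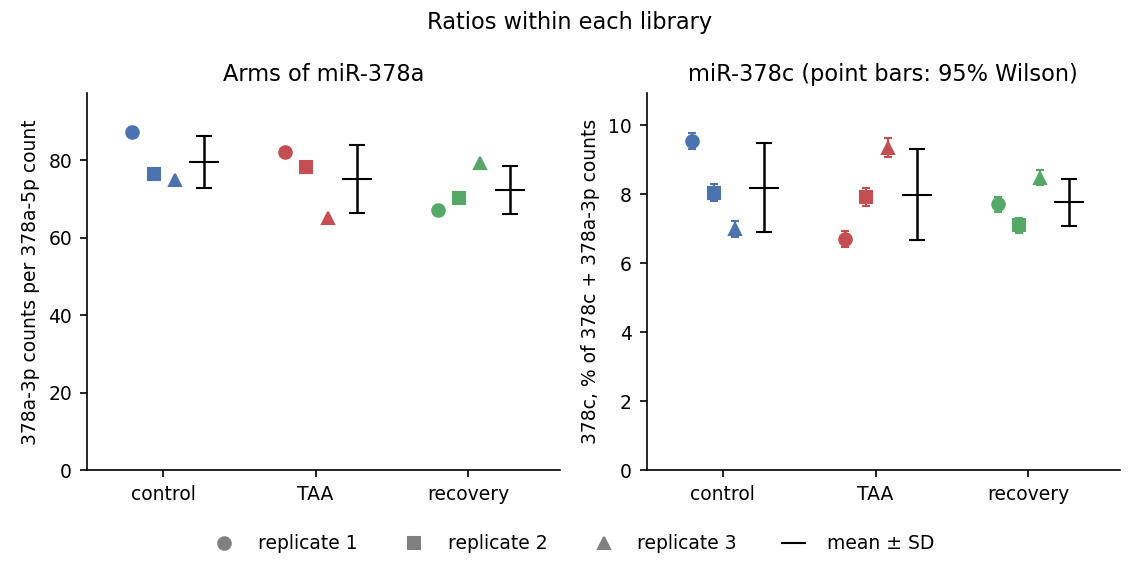
Left, counts of miR-378a-3p per count of miR-378a-5p in each library (65.2 to 87.4). Right, miR-378c as a percentage of the summed counts of miR-378c and miR-378a-3p, with the 95% Wilson interval on each point (6.71% to 9.54%). Points are samples, black bars are the mean ± SD of a group (n = 3), and the groups overlap in both panels.

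On the TMM scale the levels of miR-378a-3p over the 9 samples ran closest to those of hepatocyte miRNAs. Among 223 rows with a mean of at least 10 CPM, Pearson's r of log2(CPM + 1) was highest for miR-122-5p (0.991), miR-122b-3p (0.991), miR-192-5p (0.990), miR-194-5p (0.986) and miR-122-3p (0.985). miR-122 is the dominant hepatocyte miRNA, and the rows miR-122-5p and miR-122b-3p held the same share of counts (20.3% each for control and 11.3% each for TAA livers), so they count as 1 observation. miR-122-3p is by its name the other arm of miR-122 and is not a separate observation either. The lowest r was that of miR-34c-5p (−0.988), a target of p53, and miR-214-3p (−0.987), a miRNA of activated stellate cells. These values are a description over 9 samples in 3 groups that share the TMM factors, and 43 of the 223 rows had an r of at least 0.9. Without TAA replicate 3 the first 4 of these rows were again the highest (0.984 to 0.989) followed by miR-1843a-5p (0.982). On the TPM scale none reached 0.9, the r with miR-122-5p was 0.616, and the closest rows were miR-1843b-3p (0.854) and miR-1843a-3p (0.815). Within the family, r with miR-378a-3p was 0.968 for miR-378a-5p, 0.945 for miR-378c and 0.664 for miR-378b on the TMM scale, and 0.439, 0.858 and 0.483 on the TPM scale.

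Marker miRNAs of liver cell types moved with the same comparison. Of 8 hepatocyte miRNAs, 7 were lower in the TAA group (median log2 fold change −1.55, against 0.11 for all rows), and 7 were higher in recovery vs TAA (median 1.22, against −0.12). Their summed level was 528360 to 548540 CPM for control, 153130 to 183300 CPM for TAA and 438910 to 520340 CPM for recovery samples. In the values themselves, the decrease of miR-378a-3p was smaller than that of miR-122-5p (−1.96), miR-192-5p (−1.58) and miR-148a-3p (−1.64). The same held for miR-101b-3p (−1.84), miR-101a-3p (−1.52) and miR-194-5p (−1.42). It was larger than that of miR-122-3p (−1.17), and miR-802-5p was not lower (0.11). These differences were not tested. With library totals miR-122-5p, miR-192-5p and miR-148a-3p were still lower in the TAA group, at −0.84, −0.46 and −0.52 (FDR = 8.36e-05, 0.00120 and 0.00411, edgeR), while miR-378a-3p was at −0.11 and did not pass. The hepatocyte list then gave 4 of 8 lower and 1 higher in the TAA group (median −0.44), and 3 of 8 higher and 1 lower in recovery vs TAA (median 0.35). miRNAs of other cells differed in direction, and their counts are given on the TMM scale, where 31.9% of all rows were higher and 26.4% lower in the TAA group, and 18.4% were higher and 20.7% lower in recovery vs TAA. Those of biliary epithelium were higher in the TAA group in 5 of 5 cases (median 2.24) and lower in recovery vs TAA in 5 of 5 (4 of 5 without TAA replicate 3). Of the stellate and mesenchymal miRNAs 3 of 5 were higher and then lower, the leukocyte miRNAs were higher in 4 of 5 cases (3 of 5 without TAA replicate 3) and lower in 3 of 5, and both endothelial miRNAs were lower and then higher, a direction that turned with library totals (2 of 2 higher, then 1 of 2 lower). Of the red cell miRNAs miR-451a was lower with TAA (−1.71), and for recovery vs TAA the values of miR-451a and miR-144-3p were 0.60 and −0.23 (FDR = 0.211 and 0.779, edgeR). Of the muscle miRNAs 1 of the 3 tested was higher in the TAA group, and 2 of the 4 tested were lower in recovery vs TAA (median −5.76, or 1 of 4 with a median of −0.40 without TAA replicate 3). Without TAA replicate 3 the hepatocyte counts were again 7 of 8 (medians −1.46 and 1.18), while of the 3 muscle miRNAs tested in TAA vs control 1 was lower and no call was higher. The part of cell composition in the miR-378 values was not tested, and in whole liver fewer cells of a type and less RNA per cell cannot be told apart.

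Other miRNAs of lipid and glucose metabolism moved in both directions beside miR-378a. Of 13 on the list, 12 were tested in TAA vs control, of which 6 were lower, against 26.4% of all rows, and 2 higher, against 31.9% (median −0.20), or 5 lower and 2 higher without TAA replicate 3. With library totals the list turned, with 8 higher and 2 lower (median 0.92, against 1.23 for all rows). On the TMM scale those lower were miR-122-5p (−1.96), miR-148a-3p (−1.64), miR-30c-5p (−0.96), miR-107-3p (−0.88), miR-103-3p (−0.40) and miR-27b-3p (−0.25). Higher were miR-34a-5p (2.66), which represses SIRT1, and miR-27a-3p (0.61). In recovery vs TAA, miR-122-5p (1.68), miR-148a-3p (1.35), miR-30c-5p (0.82) and miR-107-3p (0.68) were higher and miR-34a-5p (−2.52) was lower, all at an FDR below 0.05 (edgeR), against 18.4% of all rows higher and 20.7% lower. With library totals 1 of the 12 was higher in recovery and 8 were lower (median −0.82, against −0.98 for all rows), and miR-107-3p was at −0.20 and miR-30c-5p at −0.04. The value of miR-378a-3p lay between those of miR-148a-3p and miR-30c-5p in both comparisons that involve the TAA group, with TMM as well as with library totals, where miR-30c-5p was at 0.16 in the former.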

How the data were processed

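Total RNA of 9 livers was extracted and small RNA was sequenced by the authors, who mapped the reads to mm10 and miRBase with Bowtie (version 1.3.0). The deposited table gives raw counts per mature miRNA, and beside them the TPM that the authors made, which equals the count per 1000000 counts of the library. Counts were tested for each pair of groups (6 samples) with edgeR (version 4.0.16, R 4.3.3): filterByExpr (minimum count 10), TMM, glmQLFit and glmQLFTest, with Benjamini-Hochberg adjustment over all rows tested (FDR). The SE was taken as the size of the log2 fold change divided by the square root of F. DESeq2 (version 1.42.0), limma (version 3.58.1) on log2(TPM + 1), other scalings and filters and the removal of each replicate were alternatives. Ratios were compared by exact two-sided permutation tests. The procedure was tested on simulated data in which as many rows were raised as lowered, by the same amount. That simulation does not address the choice of scaling. Named miRNAs are the family, the 5 highest and 2 lowest correlations and members of the lists named; miR-21a-5p and the miR-1843 rows were named after their values were seen. Members and lists were chosen with earlier results of these data known. Samples were assigned by their labels. Nothing says that libraries were made in separate batches, and p-values measure the spread between these mice. Positions came from GENCODE (release M21) and sequences from RefSeq.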

Additional observations from a re-analysis of the deposited data

How the results depend on the processing

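Under TMM, DESeq2 size factors or upper-quartile factors, with DESeq2, other filters or all 9 samples, both arms of miR-378a kept their direction and their FDR below 0.05 in the comparisons that involve the TAA group. With library totals and with limma on TPM they did not: for TAA vs control miR-378a-3p gave −0.11 and −0.12 and miR-378a-5p −0.02 and −0.03, and for recovery vs TAA they gave 0.09 and 0.09, and 0.13 and 0.14. With library totals without miR-21a-5p, chosen after seeing the data, the values reversed to 0.18 and 0.27 (TAA vs control) and −0.20 and −0.15 (recovery vs TAA). Against control, recovery values of miR-378a-5p turned to 0.11, 0.11 and 0.12 under these 3 settings and to 0.01 with a minimum mean of 10 CPM (range on leaving out a replicate −0.17 to 0.02). miR-378b turned with library totals and limma to 0.14 and 0.10 for TAA vs control and −0.56 and −0.45 for recovery vs TAA, where it ranged from −0.01 (without recovery replicate 3) to 0.60 on leaving out a replicate. It lost its call in TAA vs control without a filter (FDR = 0.0595, edgeR).

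The number of DEMs in the family was 3 in TAA vs control, and 0 with library totals or limma. In recovery vs TAA it was 1, became 2 with DESeq2 or its size factors, 3 with upper-quartile factors and 0 with library totals, limma, no filter or a minimum of 10 CPM, and ranged from 0 (without recovery replicate 1) to 3 (without recovery replicate 2), with 2 without TAA replicate 2 or 3. Without the rows of miR-122 and miR-21a-5p in the total, the family held 1.24%, 1.05% and 1.21% of counts in the control, TAA and recovery groups. Of the 5 rows most like miR-378a-3p, 1 remained on the TPM scale and 2 by Spearman's rho.

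Over all rows, 60.0% of the 175 DEMs in TAA vs control were higher with TMM, 98.4% of 245 with library totals and 47.5% of 181 with upper-quartile factors. In recovery vs TAA the shares were 41.3% of 109, 1.93% of 207 and 57.7% of 123. A minimum of 10 CPM left 80, 61 and 13 DEMs in the 3 comparisons, in place of 175, 109 and 44, with fewer rows tested. With the replicate number as a block, miR-378a-3p gave −1.24, 0.96 and −0.21 and miR-378a-5p −1.15, 1.01 and −0.07, and the DEMs of the family in TAA vs control became 4, with miR-378b just past a fold of 2. No other call of the family changed. Between samples with the same replicate number, the correlations of deviations from the group mean ranged from −0.241 to 0.242. Pairing of the mice by number was thus not seen, but no threshold was set and this check cannot exclude it.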

Other observations

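The spread of miR-378c beside miR-378a-3p went along with a muscle miRNA, a relation looked at after the values were seen. In each of the 3 groups the library with the highest miR-1a-3p also had the highest ratio of miR-378c to miR-378a-3p. Over the 9 samples Spearman's rho of this ratio with the miR-1a-3p level as TPM was 0.867 (Pearson's r of the log2 values 0.612), and without TAA replicate 3 rho was 0.833 (r = 0.576, n = 8). The relation was not particular to this ratio. Without TAA replicate 3 rho was 0.786 for miR-378a-3p as TPM and 0.786 for miR-378c as TPM. For the ratio of miR-378a-3p to miR-378a-5p it was then 0.690 (r = 0.789). Over the 9 samples rho of these measures was 0.433, 0.833 and 0.183. The part of muscle RNA in these measures was not tested, nor was that of sequencing depth, which differed between the libraries. Control replicate 1 had both the deepest sequencing (12983378 counts) and the highest share of miR-378c.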
